A study of Homo sapiens with 15 samples.

Results

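A recurrent break was defined as a genomic position and strand that held a 3′-OH terminus in each of the 3 untreated samples. On chromosomes 1 to 22 and X, 6962 of the 8208828 positions of the untreated samples met this rule (0.0848%). A further 46181 positions were found in exactly 2 untreated samples and 8155685 in exactly 1. The termini were mapped by SSiNGLe-P1 in formaldehyde-crosslinked nuclei of K562, an established human chronic myeloid leukemia cell line of wild-type genotype per the labels. Nuclei were left untreated or digested for 10 min with 0.01, 0.1, 1 or 10 U of nuclease P1, with 3 biological replicates each. Each replicate came from a batch of cells of 1 line, so p-values measure the spread between such preparations. The 15 samples held between 2245773 and 4225443 nuclear termini on these chromosomes. As a check of the labels, the span of CDKN2A, a gene deleted in K562, held 0 positions in 14 of the 15 samples and 1 in the other, where the genome average would place between 19.9 and 37.5. Because presence in the untreated samples chose the positions, their untreated values are given as a description, and tests were run only in the 12 treated samples.

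A 3′-OH terminus is left wherever a DNA strand is interrupted with an intact sugar end, as at a single-strand break or at the growing end of a replicating strand. In SSiNGLe these ends are extended with a poly(A) tail, copied from an oligo(T) primer and sequenced from the tail inwards, so that the first base after the tail gives the position. P1 cuts single-stranded DNA and adds further 3′-OH termini in such regions. Human centromeres are flanked by long arrays of tandemly repeated satellite DNA, much of which is missing from the hg19 reference. Satellites II and III are built from variants of the pentamer GGAAT. Runs of A followed directly by T form a stiff, narrow-grooved stretch of the double helix, and each strand of such a run can pair with itself.

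The sequences below show the kinds of positions described in the following paragraphs. Each is 30 bases of the broken strand, 5′ to 3′, of which 26 lie before the break and 4 after it, on GRCh37/hg19. The first 4 are among the 6 positions with the highest untreated level, and in them the capitals mark AAAATTTT, the centre of an A run followed by a T run. In the others the capital is the terminal base, the last base before the break. The chromosome 1 pair shows a point of the reference near the centromere with ends mapped on both strands. The last 2 lie beside T runs without AAAATTTT. Because the added tail is poly(A), the position is uncertain by the A bases that adjoin the break.
USP45 intron, chr6:99944629-99944658, minus strand: gcttgaaaaAAAATTTTtttttttaaagtg
intergenic, chr5:15422708-15422737, minus strand: atgcttgaaaaaAAAATTTTtttaatttag
PPAT intron, chr4:57263888-57263917, minus strand: tgtcttgaaaAAAATTTTtttttaattttt
LRP2 intron, chr2:170091740-170091769, plus strand: ttgcttgaaaAAAATTTTttttttttttga
pericentromeric, chr1:121485180-121485209, plus strand: ggaatttgcaagtggagatttcagcCgctt
pericentromeric, chr1:121485202-121485231, minus strand: tccttttctaccattgacctcaaagCggct
TEX11 intron, chrX:69937161-69937190, plus strand: cactttcttttctttttttttttttTgaga
PICALM intron, chr11:85735452-85735481, minus strand: aggggaatttttttttttttttaatGtgac

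If the 3 untreated samples were independent, with the density of positions that each had in every 100 kb bin and strand, 6.36 shared positions would be expected, and the 6962 observed were 1094 times that number. The excess depended on the scale of the density. With 10 kb bins 64.3 positions were expected and the factor was 108, and with a uniform density 0.583 were expected. Positions with at least 2 termini in each untreated sample numbered 3087, against 0.151 expected. Among positions whose 31 bases at the terminus occur once in the reference, 3728 were shared, against 1.45 expected. Counted as groups of positions within 10 bases on a strand, 3233 groups remained, a factor of 508. Pairs of untreated samples shared between 19717 and 24247 positions, between 10.2 and 14.8 times the number expected. The same rule applied to the treated samples gave 7795 positions in all 3 replicates of 0.01 U, 8120 for 0.1 U, 5939 for 1 U and 7346 for 10 U. With 100 kb bins, these were 1335, 1500, 1613 and 1354 times the numbers expected, so such an excess was not particular to the untreated samples. Of the 6962 untreated positions, 61.8% were also in the list of 0.01 U, 62.0% in that of 0.1 U, 51.7% in that of 1 U and 42.6% in that of 10 U. As shares of those treated lists, the overlaps were 55.2%, 53.2%, 60.6% and 40.4%.

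The recurrent positions fell into 3 kinds, named by rules that were chosen after the sequences had been seen and that are used here as a description. Pericentromeric positions, within 1 Mb of an assembly gap of at least 1 Mb, numbered 4470 (64.2%), whereas 1.60% of the positions of exactly 1 untreated sample and 1.44% of the genome lay there. A-T run positions, outside those zones and with AAAATTTT in the 30 bases before the break, numbered 1362 (19.6%, against 0.201% of the positions of exactly 1 sample). The remaining 1130 (16.2%) are called other. The lists of positions in all 3 replicates of a treated amount held the same kinds. For 0.01, 0.1, 1 and 10 U, 59.9%, 54.0%, 55.5% and 48.5% of the list were pericentromeric. A-T run positions were 21.4%, 24.5%, 24.7% and 10.6% of these lists. Against the density model, the factor was 1006 within 1 Mb of the gaps, 1301 outside them, and 593 for the positions of neither named kind. Repeats were common near the gaps. The 31 bases at the terminus occurred once in the reference for 37.0% of pericentromeric positions, 93.1% of A-T run positions and 71.4% of the others, against 85.4% of the positions of exactly 1 sample. Where these bases are repeated, the place of a terminus rests on the rest of the read pair. The 31 bases of 8 recurrent positions also occur in the mitochondrial reference.

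Most recurrent positions held few termini, and a small number held very many. In the untreated samples the mean was 7.79, 7.97 and 7.19 termini per recurrent position in replicates 1, 2 and 3, against 1.08 to 1.09 at the other positions, and the medians were 3, 2 and 2. Recurrent positions were 0.180% to 0.323% of the positions of each sample and carried 1.28%, 2.31% and 2.02% of its termini. With 1 terminus in each untreated sample there were 761, at the lower edge of the rule. At least 10 in each were found at 504 positions, and at least 100 in each at 38. The 10 positions with most termini held 16.8% of all termini at recurrent positions, and the 100 with most held 37.3%. Just outside the rule, 34193 of the positions of exactly 2 samples had 1 terminus in both, 161 had at least 10 over both, and the highest had 46. Untreated replicate 1 stood apart in the A-T run and other positions. It had 3288 CPM (termini per 1000000 termini of the sample) at the A-T run positions, against 10871 and 8560 in replicates 2 and 3, and 923 at the other positions, against 2955 and 2584. At pericentromeric positions the 3 samples were close, with 8622, 9309 and 9010. The part of library preparation in this difference was not tested.

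The highest level of all was on the minus strand in an intron of USP45, which encodes a ubiquitin-specific protease, at chr6:99944633. The 3 untreated samples held 1416, 2332 and 2234 termini there. They held 925, 2188 and 1705 at chr5:15422712, outside genes, and 807, 1743 and 1341 at chr4:57263892, in an intron of PPAT, an enzyme of purine synthesis. In each of the 3, replicate 1 was lowest in counts although it was the deepest library. The next were chr16:4402981 in an intron of PAM16, a subunit of the mitochondrial import motor, chr7:77026145 in an intron of GSAP, the gamma-secretase activating protein, and chr2:170091765 in an intron of LRP2, the endocytic receptor megalin. Their untreated samples ranged from 558 to 1158 termini. Each of these 6 was an A-T run position with a 31-base sequence that occurs once in the reference. By the mean over the treated samples, the next 6 were chr8:145125751, chrX:69342239, chr10:93381907, chr6:76672022 in IMPG1, chrX:69937186 in TEX11, a gene of meiosis, and chr12:66451373. The last lay at the end of an A run, and its 31 bases occur 76717 times in the reference.

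The base composition of recurrent breaks differed from that of the bulk of the breaks. Among the positions of exactly 1 sample, the last base before the break was C or G in 77.7% and the base before it in 82.6%, while the bases further away were near 50% A or T. Among recurrent positions these shares were 49.4% and 52.1%. The A-T run positions accounted for much of this, with C or G in 6.53% and 3.67%, but the pericentromeric positions (60.7% and 65.3%) and the others (56.3% and 57.9%) were lower too. Over the 20 bases before the break, 67.8% were A or T. TTTTAA with the break before its AA, searched on the broken strand, was present at 168 recurrent positions (2.41%), against 0.0162% of the positions of exactly 1 sample. Runs of 12 A or 12 T in the 30 bases before the break were at 7.91%, against 0.268%. GGG on the broken strand, from 30 bases before the break to 10 after it, was at 14.1%, against 42.5%. A run of 2 units of the telomere repeat, on either strand, was at 0 of 6962 and at 0.00205% of the positions of exactly 1 sample, a share too low to compare at this number. CA or TG repeats of 6 units were at 2 recurrent positions, 0.0287%, against 0.146%. These windows had the same length in each set, and a match is a description of the letters.

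**Figure D1:**
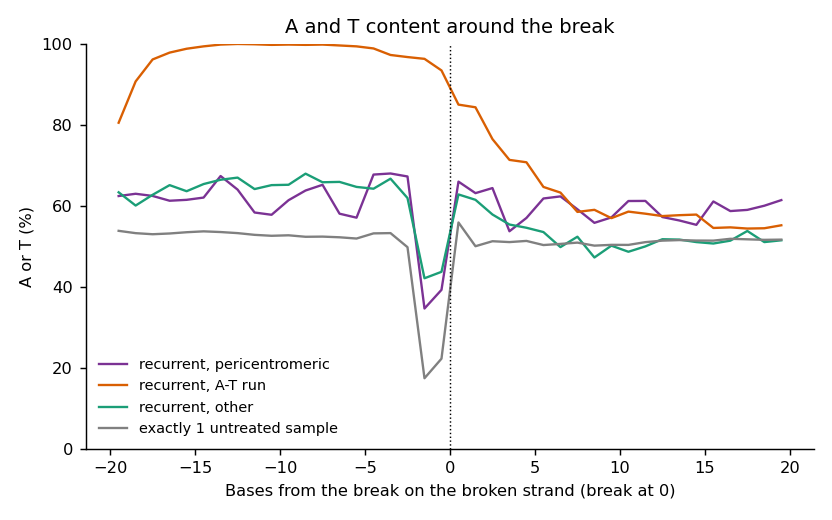
Percent of A or T (y axis) at each base from 20 before to 20 after the break on the broken strand (x axis), for the 3 kinds of recurrent position and for positions of exactly 1 untreated sample. From 17 bases before the break to the break itself, over 90% of bases are A or T at the A-T run positions, and the drop at the last bases before the break in the positions of exactly 1 sample is shallower in the pericentromeric and other kinds.

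In the A-T run positions the break lay most often at a preferred distance from the run. The change from A to T was a median of 9 bases before the break (10th to 90th percentile 7 to 14), and 1119 of 1362 breaks (82.2%) were 6 to 11 bases after it. Positions of exactly 1 sample with AAAATTTT had a wider distribution, with a median of 11 and 47.0% between 6 and 11. The A run had a median length of 8 bases and the T run of 9, against 5 and 5. In 58.7% of the recurrent ones the broken end was inside the T run or at its end, as at the LRP2 position printed above, against 27.2%. Over the genome, 354124 runs of at least 4 A followed by at least 4 T were found, and 891 of them (0.252%) held a recurrent position 4 to 26 bases from the change of base. By the length of the shorter of the A and T runs, the share was 0.00624% for 4 or 5 bases, 3.75% for 6 or 7, 7.33% for 8 or 9 and 6.93% for 10 or more. Only 37 runs held a recurrent position on each strand. The letters CTTGAA, which precede the run in the first 4 printed sequences, were found in the 40 bases before the break at 103 A-T run positions (7.56%) and at 34 of the 100 with most untreated termini, against 1.59% of the positions of exactly 1 sample with the run. This hexamer was noticed in the printed sequences, which are among those 100, so these shares are a description. Positions were counted singly, so neighbouring bases of 1 run count more than once. The first 4 printed positions lie in groups of 9, 3, 3 and 8 recurrent positions within 10 bases.

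**Figure D2:**
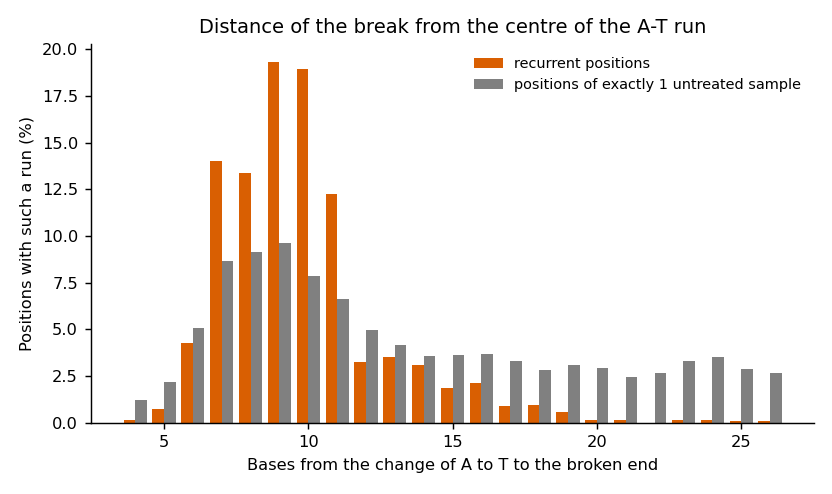
Percent of positions with an A run followed by a T run (y axis) by the number of bases from the change of A to T to the broken end (x axis), for recurrent positions and for positions of exactly 1 untreated sample. Recurrent breaks gather from 6 to 11 bases after the change, with most at 9 and 10.

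The pericentromeric positions were concentrated in a few stretches. Positions were found in 1570 bins of 100 kb, of which 1076 held 1, and the 14 fullest held 58.8% of all recurrent positions. The fullest bin, chr1:121400001-121500000, held 756 (10.9%), all between 121478375 and 121485436. Chromosome 10 had the next ones, with 561 at 42500001 to 42600000 and 544 at 42300001 to 42400000. Chromosome 10 as a whole carried 1423 of the recurrent positions (20.4%) and chromosome 1 carried 977. The motif AATGGAAT or its reverse complement ATTCCATT, taken from the GGAAT repeat, lay within 30 bases before the break at 1051 pericentromeric positions (23.5%), against 10.7% of pericentromeric positions of exactly 1 sample. It was at 45.8% of the positions in the first chromosome 10 bin and 62.7% in the other, and at none in the chromosome 1 bin. The 3 fullest bins thus differed in this motif. K562 has an altered karyotype, and copy number and missing repeat copies both add to the termini that fall on such a stretch of the reference. They cannot be told apart here.

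Gene features followed the kinds. In genes, by GENCODE, lay 24.9% of the recurrent positions, against 65.8% of the positions of exactly 1 sample and 62.2% of the genome. By kind it was 0.403% of pericentromeric, 72.2% of A-T run and 64.7% of other positions. Within 1000 bases of a transcript start lay 4.78% of recurrent positions, against 11.3% and 7.52%, and by kind 0.112%, 6.46% and 21.2%. Exons held 2.47%, against 8.53% and 5.49%. Where the position lay in genes of 1 strand only, the broken strand was the template strand in 775 of 1561 (49.6%). A recurrent position lay in 915 protein-coding genes, and in 631 of these there was exactly 1. The most were in NLK, a kinase of the Wnt and MAPK pathways, with 15, in CHEK2, a checkpoint kinase, with 12, and in MUC3A, a membrane mucin, and TEX11, with 10 each. SENP5, a SUMO protease, PFDN1, a prefoldin subunit, USP45 and PALB2, the partner of BRCA2, had 9 each, and LRP2 and the gene listed as ENSG00000239920 had 8. The 9 of USP45 and the 8 of LRP2 were A-T run positions, and those of the other 8 genes were of the other kind except 1 in PFDN1. Within 1000 bases of a transcript start, CHEK2 and its neighbour HSCB, an iron-sulfur co-chaperone, had 12, the same ones for both. MUC3A had 10, PALB2 9, IGF2R 5 and YES1 4. LRPPRC and PAN2 had 3, and TMEM50A and GORASP2 had 2. At 104 protein-coding genes a recurrent position lay near a start. Most of these counts are neighbouring bases. Counted as groups within 10 bases on a strand, NLK, USP45, PALB2, LRP2 and ENSG00000239920 held 1 group each, as did IGF2R, YES1, LRPPRC and PAN2 near their starts. CHEK2, TEX11, PFDN1, TMEM50A and GORASP2 held 2, SENP5 held 3 and MUC3A held 9.

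Recurrent positions lay close together. Another one was within 10 bases on the same strand for 67.8%, and within 1 base for 44.3%, and on the opposite strand within 10 bases for 21.7%. Pericentromeric positions had a neighbour on the same strand in 80.3% and on the opposite strand in 33.7%. Of the A-T run positions 52.6% had one on the same strand and 0 of 1362 on the opposite strand. AAAATTTT reads the same on both strands, and the break lay a median of 9 bases past its centre. Ends on the 2 strands of 1 run thus mostly lie more than 10 bases apart, which largely fixed this 0. Of the others 36.7% had one on the same strand and 0.354% on the opposite strand. Within 100 bases, an opposite-strand neighbour was at 7.12% of A-T run, 7.70% of other and 67.2% of pericentromeric positions. The 6962 positions formed 3233 groups, 2241 of a single position and 212 of at least 5, and the largest, on chromosome 1, held 156. Breaks with ends that face each other at the same point between 2 bases on both strands were no more frequent than at other offsets. They formed 183 pairs, beside 161 to 244 pairs at each offset from 20 bases before to 20 after that point. Of the 1511 positions with an opposite-strand neighbour within 10 bases, 1507 were pericentromeric. The counts near the facing point therefore describe almost only that kind.

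The treated samples did not take part in the choice of the positions. Of the 6962 recurrent positions, 5492, 5534 and 5419 were found in the 3 samples of 0.01 U (78.9%, 79.5% and 77.8%), where 0.719%, 0.655% and 0.657% of all 8208828 untreated positions were found. At 0.1 U it was 5391, 5536 and 5540 (77.4%, 79.5% and 79.6%), against 0.707%, 0.652% and 0.698%. At 1 U it was 5080, 4948 and 4919 (73.0%, 71.1% and 70.7%), against 0.575%, 0.497% and 0.515%. At 10 U it was 4296, 4794 and 4310 (61.7%, 68.9% and 61.9%), against 0.499%, 0.63% and 0.48%. Every one of the 12 samples was far above its background, and the 10 U samples were below all others. Relative to the positions of exactly 1 untreated sample the share was 151 times as high (geometric mean, range over samples 132 to 184, higher in 12 of 12 samples). An exact two-sided sign-flip permutation test gave p = 0.000488, the smallest that 12 samples allow, or 0.000977 after Benjamini-Hochberg adjustment over the 4 permutation tests made. Both sets were defined by how many untreated samples held a position, so the direction of this ratio was largely set in advance. The p-value therefore adds no support, and the ratio is a description. The sign flips also treat the 12 samples, 3 at each of 4 amounts, as independent. Against positions of exactly 2 untreated samples the ratio was 7.07. All 12 treated samples held 2031 of the positions (29.2%), and 163 (2.34%) were in none.

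The share of recurrent positions found was lower at 10 U, and so was that of the positions of exactly 1 untreated sample. With SD over 3 samples, 0.01 U had 78.7% ± 0.836, 0.1 U had 78.8% ± 1.22, 1 U had 71.6% ± 1.23 and 10 U had 64.2% ± 4.07. Exact permutation of the 4 amounts within replicate numbers gave p = 0.00521 (adjusted 0.00521), and the share at 10 U was 0.840 times that at the lower amounts. The same factor was 0.851 for all untreated positions and 0.866 for those of exactly 1 sample. A share below that of the lower amounts together was thus not particular to the recurrent positions. From 1 U to 10 U the courses differed. The mean for positions of exactly 1 sample went from 0.417% to 0.438%, while that of recurrent positions went from 71.6% to 64.2%. With samples thinned to equal termini, the factor for recurrent positions was 0.792. Relative to positions of exactly 1 sample, the share of recurrent positions was 0.970 times as high at 10 U as at the lower amounts. Without replicate 2 it was 1.06 times as high. By kind, A-T run positions went from 86.0% ± 2.57 at 0.01 U to 68.2% ± 11.1 at 10 U, and 10 U replicate 2 (80.7%) stood above replicates 1 and 3 (59.3% and 64.8%). Pericentromeric positions went from 80.8% ± 0.757 to 67.9% ± 1.53, and the others from 61.7% ± 0.184 to 44.5% ± 6.31. Without the samples numbered replicate 2 the factor was 0.812, and without replicate 3 it was 0.852 (exact permutation p = 0.0833 for each, where 0.0417 is the smallest that 2 replicates allow).

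**Figure D3:**
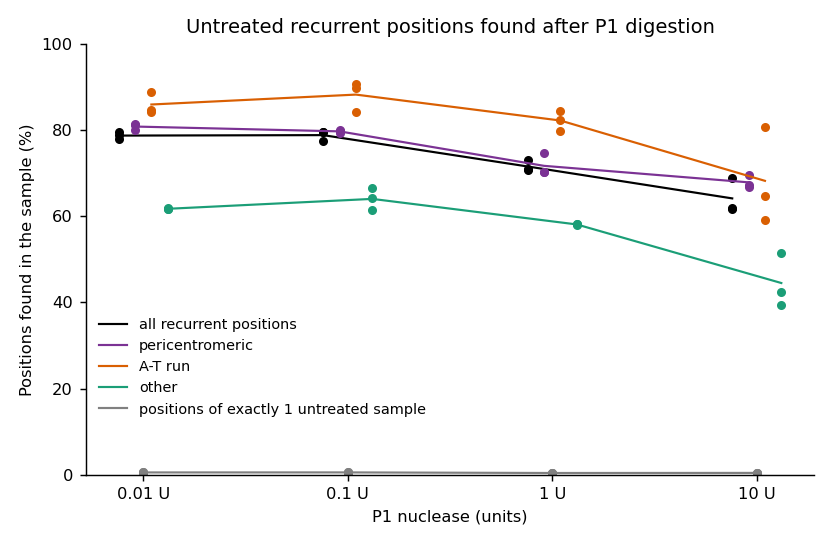
Percent of positions found in each treated sample (y axis, points are samples and lines join means) by P1 amount (x axis), for all recurrent positions, for their 3 kinds, and for positions of exactly 1 untreated sample. Each kind is lower at 10 U than at 0.01 U, and the positions of exactly 1 sample stay below 1%.

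Termini at the recurrent positions changed more than their presence. Summed over the recurrent positions, 0.01 U had 17849 CPM ± 1555 (SD, n = 3 in each group), 0.1 U had 19302 ± 2925, 1 U had 16081 ± 898 and 10 U had 9241 ± 851. The untreated samples, which chose the positions, had 18708 ± 5301. The exact permutation test over the treated amounts gave p = 0.00347 (adjusted 0.00463), and the level at 10 U was 0.523 times that at the lower amounts. Without replicate 2 (0.517) or replicate 3 (0.535) the exact permutation p was 0.0833. Recurrent positions that were found held 5.74 to 11.4 termini on average in the treated samples, against 1.13 to 1.26 at positions of exactly 1 sample, a ratio of 7.22 (exact permutation by sign flips, p = 0.000488, adjusted 0.000977, each of 12 samples above 1). The way the 2 sets were defined largely set the direction of this ratio too, so its p-value adds no support. The kinds took different courses. A-T run positions held 7511 CPM ± 1372 (0.01 U), 9061 ± 2493 (0.1 U), 7835 ± 843 (1 U) and 3123 ± 1061 (10 U), and the 10 U samples were 2286, 4316 and 2768. In the same order, the others held 1847 ± 322, 2132 ± 410, 1837 ± 295 and 782 ± 163. Pericentromeric positions with AATGGAAT or ATTCCATT had similar means in the 4 groups, 1157, 1098, 1217 and 1205, and their samples overlapped in range (1073 to 1278 for 0.01 U, 1067 to 1312 for 10 U). Pericentromeric positions without it had means of 7335, 7011, 5191 and 4130. There the samples of 10 U (3771 to 4414) lay below those of 1 U (4979 to 5508), and these below those of both lower amounts (6911 to 7626). These courses by kind were not tested. All values are relative to the total of the sample, which also contains the termini made by P1.

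**Figure D4:**
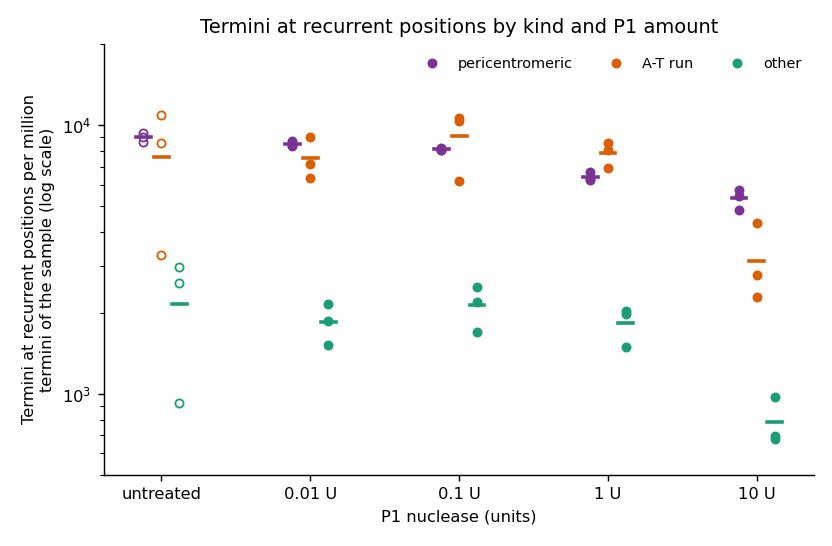
Termini at recurrent positions in CPM (y axis, log scale) by P1 amount (x axis), for the 3 kinds. Points are samples, bars are means of 3 and open points are the untreated samples that chose the positions, where replicate 1 lies low in the A-T run and other kinds.

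Position by position, 10 U was compared with the mean of the 3 lower amounts by edgeR's quasi-likelihood test at all 5452 positions of the genome with at least 20 termini over the treated samples. Of these, 1172 were lower (21.5%) and 259 higher (4.75%) at an adjusted p under 0.05, relative to the total of each sample. Of the recurrent positions 4074 could be tested, of which 1075 were lower (26.4%) and 135 higher (3.31%), and the median log2 difference was -0.88, beside -0.80 over all positions tested, of which the recurrent ones are the larger part. Among the 1378 tested positions that were not recurrent, 97 were lower (7.04%) and 124 higher, with a median of -0.51. Few of these held many termini. With at least 50 termini, 15 of 83 were lower (18.1%) and 25 higher, against 830 lower (43.1%) and 110 higher of 1924 recurrent ones. Tested positions that were not recurrent were by definition absent from at least 1 untreated sample. The definition may thus have partly set the direction of this comparison, which is a description. The recurrent positions below 20 termini were not tested. All calls in the A-T run positions went one way, with 391 of 948 lower and 0 higher (549 at an unadjusted p under 0.05), and a median of -1.34. In the other kind 186 of 479 were lower and 24 higher, with a median of -1.37. In pericentromeric positions with the GGAAT-type motif 21 of 546 were lower and 39 higher, with a median of 0.00, and without it 477 of 2101 were lower and 72 higher, with a median of -0.65. The scale matters here. When the samples were scaled to the tested positions themselves (TMM), the median of all positions rose from -0.80 to -0.25. The calls of all positions became 487 lower (8.93%) and 483 higher (8.86%). Those of recurrent positions then were 454 lower (11.1%) and 297 higher (7.29%), and those of A-T run positions 126 lower (13.3%) and 0 higher. Pericentromeric calls turned from 498 lower and 111 higher to 242 lower (9.14%) and 268 higher (10.1%). DESeq2 with its own size factors called 155 of 3589 recurrent positions lower (4.32%) and 179 higher, and 155 of all 4500 tested positions lower (3.44%) and 274 higher. In the A-T runs it called 33 of 842 lower (3.92%) and 0 higher. The balance of pericentromeric calls thus depended on the scaling. No A-T run position was called higher under these scalings, but the share called lower by DESeq2 was near that of all positions.

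**Figure D5:**
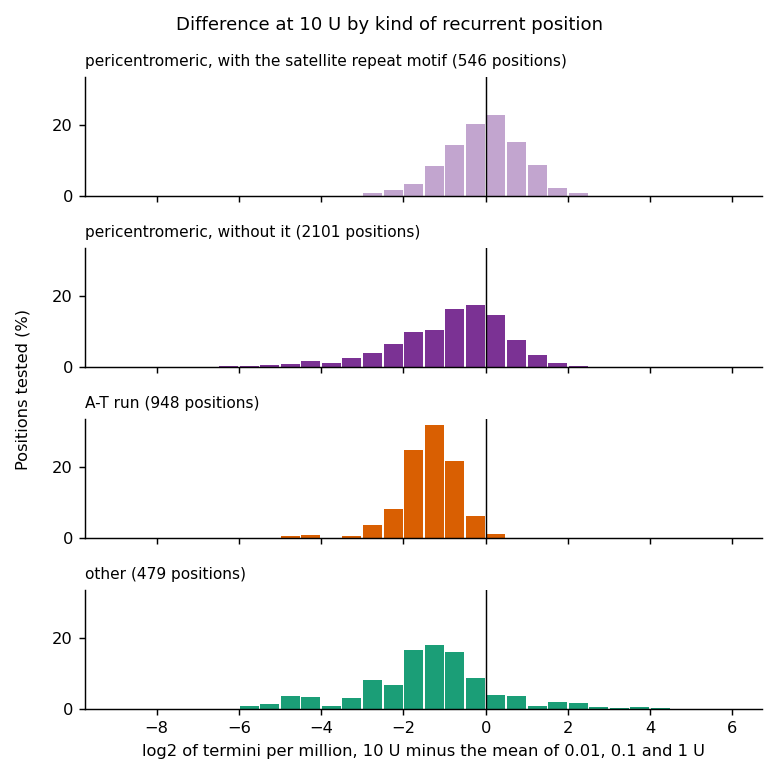
Percent of tested recurrent positions (y axis) by the log2 CPM at 10 U minus the mean of 0.01, 0.1 and 1 U (x axis, steps of 0.5), in 4 kinds with the number tested. The A-T run positions lie almost wholly below 0, while the pericentromeric positions with the satellite repeat motif are centred on 0.

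At the USP45 position the 0.01 U samples held 1479, 2505 and 1630 termini, the 0.1 U samples 1656, 2756 and 3497, the 1 U samples 1649, 1804 and 1997, and the 10 U samples 466, 1645 and 644. The log2 difference in CPM between 10 U and the lower amounts was -1.53 ± 0.16 (SE, edgeR adjusted p = 2.16e-16). This fit used replicate number as a block. Without the block the difference was -1.47 ± 0.31 (SE, edgeR adjusted p = 0.00146). In the main fit, the other 5 of the 6 highest untreated positions had log2 differences from -1.47 to -1.32. Of these 6, each was called lower by TMM scaling and by DESeq2 as well, with -0.95 (TMM) and -0.82 (DESeq2) at USP45. The 6 chosen by treated level were also lower at 10 U, with log2 differences of -1.65 to -1.30 in 5 of them and of -3.36 ± 0.23 at the A run of chr12:66451373, where the 10 U samples held 32, 59 and 28 termini against 196 to 434 in the samples of lower amounts. DESeq2 did not call the TEX11 position (-0.60, adjusted p = 0.0653) and TMM scaling did (-0.72, adjusted p = 0.00514).

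A few further positions were picked after their values had been seen, to show how neighbours differ. At the chromosome 1 pair printed above, the plus strand ends at 121485205 and the minus strand at 121485206, so that ends of both strands meet at 1 point of the reference. The 31 bases at the plus-strand end occur 2 times in the reference and those at the minus-strand end 1 time. Whether all termini of the plus-strand end came from this copy was not tested. These 2 ends lie in groups of 38 and 75 recurrent positions. Termini were pooled over cells, so whether both strands of 1 molecule were broken there was not tested. The plus-strand end held 379, 213 and 387 termini at 0.01 U, 386, 295 and 311 at 0.1 U, 141, 78 and 102 at 1 U and 20, 24 and 17 at 10 U. The minus-strand end held 259, 206 and 244, then 203, 215 and 194, then 92, 55 and 74, and 19, 12 and 12. Both ends lost most of their termini, with log2 differences of -3.63 ± 0.25 and -3.58 ± 0.27 (SE, edgeR adjusted p = 1.71e-35 and 7.58e-31). Without the replicate block the edgeR adjusted p was 1.00e-08 and 1.70e-08. Another end on the plus strand, at 121485335, held 212, 157 and 191 termini at 1 U and still 186, 212 and 209 at 10 U. Its 31 bases also occur 2 times in the reference. Its log2 difference was -0.56 ± 0.18 (edgeR adjusted p = 0.0141) and turned to 0.01 with TMM scaling and 0.14 with DESeq2. It did not pass without replicate 1 (adjusted p = 0.0804), without replicate 2 (0.103) or without the block (0.0798). At chr6:160521755, at the end of an A run in an exon of IGF2R, the receptor that sorts lysosomal enzymes, the lower amounts held 100 to 266 termini and the 10 U samples 10, 22 and 6 (-4.15 ± 0.27, edgeR adjusted p = 1.05e-37). Without the replicate block the edgeR adjusted p there was 1.00e-08. The 31 bases at this position occur 2473 times in the reference. At the PICALM position, in a gene of clathrin-mediated endocytosis, the lower amounts held 21 to 86 termini. The 10 U samples held 6, 11 and 2. The log2 difference was -2.90 ± 0.35 (SE, edgeR adjusted p = 3.04e-13). Without the replicate block it was -2.97 ± 0.46 (SE, edgeR adjusted p = 6.36e-05).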

How the data were processed

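K562 nuclei, untreated or digested with P1, gave 15 samples of 3′-OH termini. The authors required a G start in read 1, a T start in read 2 and a base quality above their limit, aligned the pairs to hg19 with BWA 0.7.12 (processing notes; BWA-MEM per the methods), kept unique pairs, removed termini with over 40% T in the 20 bases before read 2 and deposited the count of termini per position and strand. Duplicates are not stated as removed, so counts are not counts of independent molecules. The other deposited lists (SICER 1.1 regions, clustered sites, mitochondrial termini) were not used here. The strand of the files was taken as that of read 2, where T never exceeded 8 of 20 bases, and the broken strand is the opposite. Genes came from GENCODE 44 mapped to GRCh37, sequences from the GRCh37 reference.

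Positions and counts were joined in Python 3.11.15 and tested with exact permutation tests and edgeR 4.0.16 (DESeq2 1.42.0 as an alternative) with replicate number as a block and the nuclear total as library size. The steps were tested on simulated data. Members, lists and tests were chosen with earlier results of these data known. Named positions are the 6 highest by untreated level, the next 6 by treated level among those in all 12 treated samples, 1 per group of positions within 10 bases, named genes the 10 with most positions in the span and near a start, and named bins the 3 fullest. The alternatives concerned bin size, repeats, neighbouring positions, A runs after the break, depth, filters, normalization, the block and each replicate. Depth was 2245773 to 4225443 termini per sample, and precision is that of 3 replicates.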

Additional observations from a re-analysis of the deposited data

How the results depend on the processing

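The number of positions shared by the untreated samples was 1094 times the expected number in the main setting. The factor was 108 with 10 kb bins, 11942 with a uniform density, 20406 for at least 2 termini in each sample, 2578 for a 31-base sequence that occurs once and 508 with positions within 10 bases counted as one. It was 1006 within 1 Mb of large gaps, 1301 outside and 593 without pericentromeric and A-T run positions, 3 settings chosen after seeing the data. Leaving out a replicate compares pairs of samples and gave 10.2 to 14.8. The percent of A or T in the 20 bases before the break was 67.8 in the main setting, 51.4 for positions of exactly 2 samples, 72.5 for 31-base sequences that occur once, 70.2 for 1 position per group and 55.1 to 59.0 without a replicate. The percent near a transcript start (4.78) was 2.18 for protein-coding genes, 7.21 for 1 position per group, 6.95 for sequences that occur once, 2.38 for 500 bases and 9.38 to 10.2 without a replicate. The percent in genes (24.9) was 20.2, 38.0 and 39.2 for the first 3 of these and 45.8 to 48.6 without a replicate. A neighbour on the same strand (67.8%) was found for 62.1% within 5 bases, 76.9% within 100, 60.4% of sequences that occur once and 30.5% to 34.2% without a replicate, and on the opposite strand (21.7%) for 17.8%, 45.8%, 13.98% and 9.59% to 10.5%. Without a replicate the rule took 19717 to 24247 positions, so these ranges describe a longer list.

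The share at 10 U over the lower amounts (0.840) was 0.812 to 0.856 and the CPM (0.523) 0.517 to 0.535 without a replicate. Without pericentromeric positions, without A-T run positions or without both (chosen after seeing the data), the former was 0.722 to 0.853 and the latter 0.382 to 0.641, and the ratio of shares to positions of exactly 1 sample was 131 to 157. That ratio (151) was 7.07 against positions of exactly 2 samples, 85.8 with a match within 1 base and 875 for at least 2 termini in the treated sample. The share and the CPM both lost their call without replicate 2 and without replicate 3 (exact permutation p = 0.0833), where 2 replicates remain. For the counts at 10 U, TMM scaling called 487 lower (8.93%) and 483 higher (8.86%) of all positions. Of the recurrent ones it called 454 lower (11.1%) and 297 higher (7.29%). DESeq2 called 155 lower in each set, and 274 higher of all positions and 179 of the recurrent ones. With at least 50 termini 135 of all positions were higher, and with at least 6 termini 86 recurrent ones. Without a replicate, 721 to 742 of all positions were lower and 126 to 145 higher, and 693 to 715 and 72 to 95 of the recurrent ones, with fewer positions tested. The position at 121485335 of chromosome 1 turned to 0.0103 with TMM and 0.14 with DESeq2, and the cause was not tested. Of the 12 positions named by the rule, 11 kept direction and call with DESeq2 and 12 with TMM, and of 12 chosen later, 7 and 10. The labels number the replicates. Deviations of same-numbered samples correlated by -0.0459 to 0.104 and those of other pairs by -0.141 to 0.138, with medians of 0.0329 and -0.0118 and positive values in 15 of 18 and 13 of 36 pairs. This is a weak sign and was not taken to show pairing, as no same-numbered pair exceeded 0.104. The block stayed in the main test as planned, because the authors ran SICER on pairs of treated and untreated replicates. With no replicate block, 1048 of all positions were lower and 235 higher, and 966 and 119 of the recurrent ones, and the permutation p-values were 0.000519 for the share found and 0.00429 for the termini.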
